A study of Mus musculus with 6 samples.

Results

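The basement membrane genes of the mouse blastocyst were followed here as a set of 10. The set holds the laminin chain genes Lama1, Lama5, Lamb1 and Lamc1, the collagen IV chain genes Col4a1 and Col4a2, the linker gene Nid1, the matrix glycoprotein gene Sparc, and Serpinh1 and P4ha2, whose products act on collagen inside the cell. Members were taken by gene name from the platform annotation with all of their features (spots on the array), which gave 22 features for 10 genes out of 22485 named genes. All 22 features lay above the filter on dim signal, so all 10 genes were among the 17399 tested.

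A basement membrane is a thin sheet of matrix on which epithelial cells rest. Laminin trimers of an alpha, a beta and a gamma chain form one network at the cell surface, collagen IV trimers form another, and nidogen and the proteoglycan perlecan link them. In the mouse blastocyst such a sheet forms between the primitive endoderm and the epiblast and under the trophectoderm. The parietal endoderm, a derivative of the primitive endoderm, later builds the thick Reichert's membrane and is known for very high production of laminin, collagen IV and Sparc.

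The embryos were of the B6C3F1 strain. They were flushed from the oviducts of superovulated females aged 6 to 8 weeks on day 2 of pregnancy and kept for 72 hours in CCM-30 medium. In the scramble group (3 samples) the medium held a scrambled oligonucleotide with the dye Alexa 488 at 400 nM, and in the mimic group (3 samples) it held a synthetic mimic of the microRNA miR-30d at 400 nM. Whole blastocysts were taken on day 5 with 30 embryos a condition, and each sample was read on a 1-colour array, as log2 signal. The labels name the dye for the control only, no embryos without an oligonucleotide were analysed here, and RNA came from whole embryos, so effects of the dye, of either oligonucleotide and of lineage proportions cannot be told apart. Fewer cells of a type and less RNA per cell cannot be told apart either.

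Of the lineages that make or rest on the membrane, the trophectoderm and the primitive endoderm were each read on all arrays by a marker. Markers of the epiblast are given as a list further below. The trophectoderm regulator Cdx2 lay between 12.14 and 13.73 on the log2 scale, and the primitive endoderm regulator Gata6 between 11.04 and 11.36. Of 8 marker genes of stromal cells, which also make matrix, Col1a1, Col1a2, Dcn and Lum were among the dim features that were left out, and the other 4 did not exceed 8.59. Features without a gene name, a guide to the dim end of the scale, had a median of 7.22. Array means were 8.1304 to 8.1307, so the values had been brought to a common scale before deposit, and a change shared by most genes would not show.

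Between the groups, 8 of the 10 members had a higher mean with the mimic and 2 a lower one, and none passed the test. The median log2 difference (mimic minus scramble) over the 10 genes was 0.23, from -0.19 for Lama5 to 0.54 for Lamb1. Omitting scramble replicate 1 left a median of 0.04, and omitting mimic replicate 2 left 0.09 with 6 of 10 higher. Over all 17399 genes 53.2% were higher with the mimic and the median was 0.02. At an adjusted p of 0.05 limma called 0 of 10 members and 0 of all genes (0%). At an unadjusted p under 0.05 it counted 1 member, Serpinh1, against 3.17% of all genes in either direction. The adjusted p was 0.972 or 0.973 for every member, so these differences are given as values and not as changes. Counted by feature, 19 of 22 were higher with the mimic against 54.2% of all 24769 features, but 10 of the 22 belong to Col4a1 and do not count separately.

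**Figure D1:**
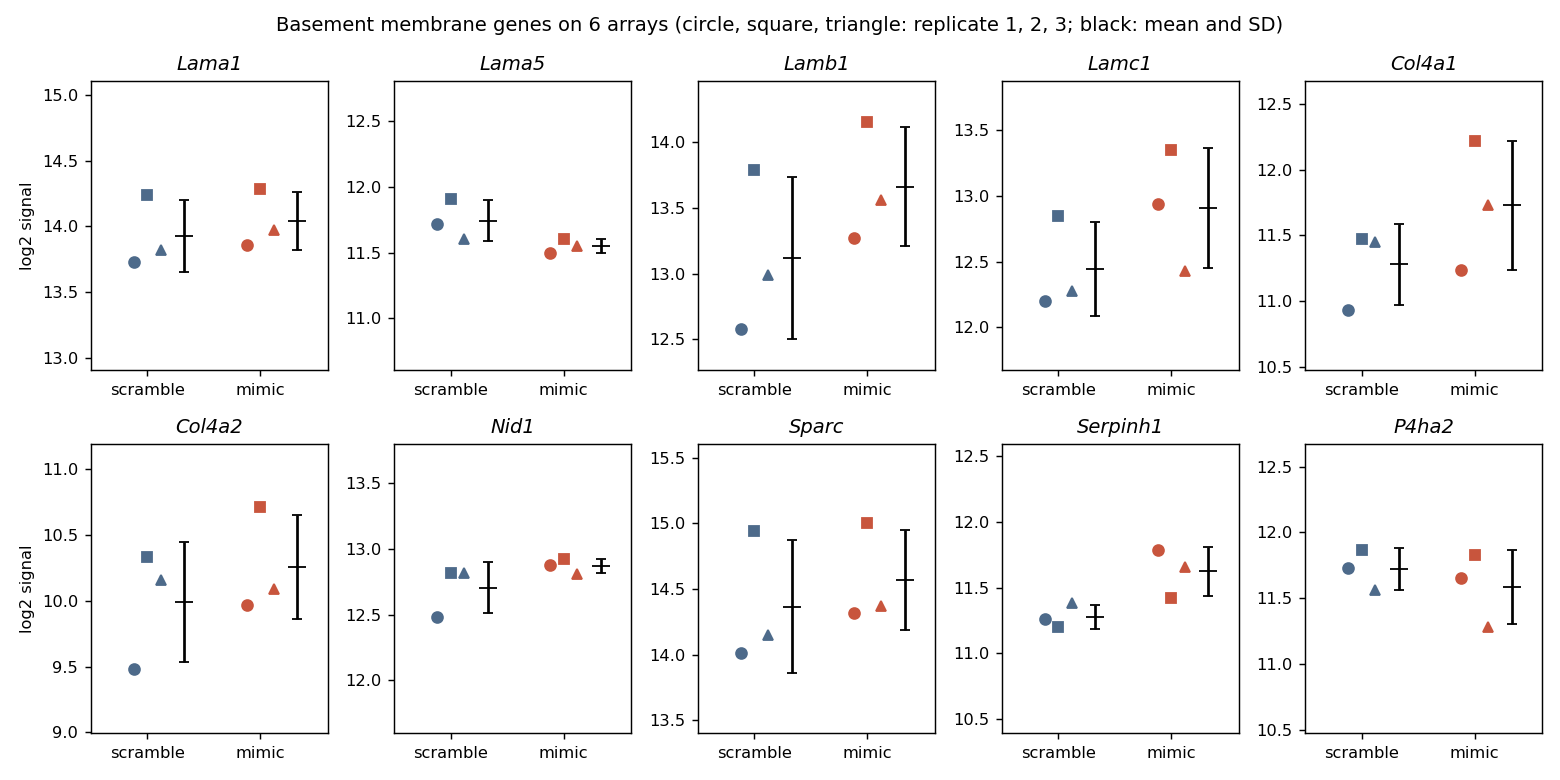
Log2 signal of the 10 genes on the 3 scramble (blue) and 3 mimic (red) arrays, with circles, squares and triangles for replicates 1, 2 and 3 and black bars for the mean and SD. All panels span the same log2 range, each centred on its own values, and the groups overlap in every gene but Serpinh1.

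Lama1 encodes the alpha chain of laminin-111, a laminin of early embryos. Its signal was 13.73, 14.24 and 13.82 in scramble replicates 1, 2 and 3 and 13.86, 14.28 and 13.97 in the mimic replicates. Both groups were highest on replicate 2 and the ranges overlapped almost fully. The log2 difference was 0.11 (SE 0.20), with a 95% interval from -0.34 to 0.56 by limma, and it was -0.012 without mimic replicate 2.

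Lamb1, the beta chain gene of laminin-111, had the highest difference of the set. It read 12.58, 13.79 and 12.99 with scramble and 13.27, 14.15 and 13.56 with the mimic. Each mimic array exceeded the scramble array of the same number, while scramble replicate 2 lay above mimic replicates 1 and 3, so the groups overlapped. Their means were 13.12 ± 0.61 and 13.66 ± 0.45 (SD, n = 3 each), a difference of 0.54 (SE 0.33) or 1.46-fold.

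Lamc1, the gamma chain gene, completes that trimer. It read 12.20, 12.85 and 12.28 with scramble and 12.94, 13.35 and 12.43 with the mimic. Mimic replicates 1 and 2 were above all scramble arrays and mimic replicate 3 was not. The means were 12.45 ± 0.36 and 12.91 ± 0.46 (SD, n = 3 each), a difference of 0.46 (SE 0.26).

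Lama5 encodes the alpha chain that takes the place of the Lama1 product in laminin-511, another laminin of embryonic and adult epithelia. It read 11.72, 11.91 and 11.60 with scramble and 11.50, 11.60 and 11.55 with the mimic. Mimic replicates 1 and 3 lay below every scramble array, and the groups met at 11.60, where mimic replicate 2 and scramble replicate 3 lay. The difference was -0.19 (SE 0.12), with an interval from -0.48 to 0.09. Whether Lama5 differed from the other laminin chains was not tested.

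The 2 collagen IV genes encode the chains of the common collagen IV trimer, which holds 2 chains of the Col4a1 product and 1 of the Col4a2 product. They lie head to head and are known to share a promoter region. RefSeq windows (GRCm38.p6) from 250 bases before to 50 after each start are printed, because the windows overlap. The Col4a1 window is chr8:11312777-11313076 on the minus strand and the Col4a2 window is chr8:11312555-11312854 on the plus strand, both 5′ to 3′, and capitals mark the 78 bases that both windows hold, as reverse complements.
Col4a1: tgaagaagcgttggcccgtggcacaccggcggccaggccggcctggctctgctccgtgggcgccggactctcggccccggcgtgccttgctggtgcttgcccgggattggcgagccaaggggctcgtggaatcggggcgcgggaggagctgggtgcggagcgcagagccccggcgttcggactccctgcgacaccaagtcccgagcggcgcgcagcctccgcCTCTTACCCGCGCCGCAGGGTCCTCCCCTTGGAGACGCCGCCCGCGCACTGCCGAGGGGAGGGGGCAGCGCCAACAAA
Col4a2: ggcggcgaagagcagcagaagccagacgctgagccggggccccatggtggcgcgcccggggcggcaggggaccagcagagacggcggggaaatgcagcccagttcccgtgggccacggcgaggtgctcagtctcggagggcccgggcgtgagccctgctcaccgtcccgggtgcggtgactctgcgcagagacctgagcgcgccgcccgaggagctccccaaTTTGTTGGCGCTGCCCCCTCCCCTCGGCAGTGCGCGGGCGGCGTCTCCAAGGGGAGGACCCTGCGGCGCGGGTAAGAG
The annotated starts are 21 bases apart, at 11312826 for Col4a1 and 11312805 for Col4a2. On these strands the 2 transcripts overlap at their 5′ ends and no gap separates them. The bases before each start thus lie within the other gene. The windows hold 74% and 73.7% G and C, against a median of 52.7% over all 32851 RefSeq windows.

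Simple motifs were looked for on both strands of the 8 member windows given there (Lama1 and Lamc1 had no entry). GGGCGG, the GC box, was found in 7 of 8 windows and in 35.7% of all windows, with 1 match in the Col4a1 and 3 in the Col4a2 window, where a match within the shared bases counts for both. CCAAT was found in 4 of 8, those of Lamb1, Col4a1, Col4a2 and Nid1, and in 37.4% of all. TATAAA and GATAA were found in 0 of 8, against 13.6% and 25.4% of all windows. GATAA can be read by the GATA factors of the primitive endoderm, and its absence says only that these letters are not in these windows.

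The brightest Col4a1 feature read 10.93, 11.47 and 11.45 with scramble and 11.24, 12.22 and 11.73 with the mimic. Mimic replicates 2 and 3 were above all scramble arrays, while mimic replicate 1 was below scramble replicates 2 and 3. The means were 11.28 ± 0.31 and 11.73 ± 0.49 (SD, n = 3 each), a difference of 0.45 (SE 0.25), or 1.36-fold.

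Col4a2 read 9.48, 10.33 and 10.16 with scramble and 9.97, 10.71 and 10.09 with the mimic. As in Col4a1, and in 5 other members, scramble replicate 1 was the lowest array and mimic replicate 2 the highest. The difference was 0.27 (SE 0.27), with an interval from -0.35 to 0.88. It rested on scramble replicate 1, without which it was 0.0086.

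Col4a1 was read by 10 features, which shows how far spots of the same gene on the same array differ. Their log2 differences ran from 0.30 to 0.46, with a median of 0.44, and all 10 were positive. On scramble replicate 1 they lay between 10.55 and 10.99, on scramble replicate 2 between 11.04 and 11.48 and on scramble replicate 3 between 10.80 and 11.54. On mimic replicate 1 they lay between 10.76 and 11.24, on mimic replicate 2 between 11.64 and 12.24 and on mimic replicate 3 between 11.28 and 11.75. Every feature read highest on mimic replicate 2. Once each feature's own mean was removed, the features of an array differed by an SD of 0.070 on average, whereas the array means differed by an SD of 0.30 among scramble and 0.49 among mimic arrays. Amplification, labelling and hybridization are shared by the spots of an array and are not in the first of these values. The annotation used here does not say whether the 10 features carry the same probe.

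**Figure D2:**
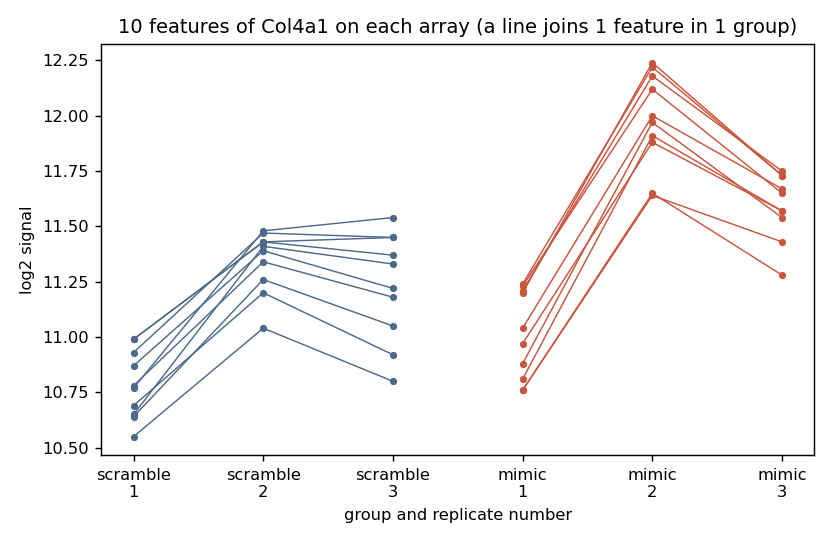
Log2 signal of the 10 Col4a1 features on each of the 6 arrays, with a line joining a feature within its group (scramble in blue, mimic in red). All 10 are highest on mimic replicate 2, and 10 of 10 differences of the means are positive (0.30 to 0.46).

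Nid1 encodes nidogen-1, also called entactin, which binds the laminin gamma 1 chain and collagen IV. Its brightest feature read 12.48, 12.82 and 12.82 with scramble and 12.88, 12.92 and 12.81 with the mimic. Apart from scramble replicate 1 the arrays lay between 12.81 and 12.92, and the difference was 0.16 (SE 0.14). The 2 other features were dim and went apart. One read 8.99, 8.68 and 9.22 against 7.57, 9.04 and 8.78, a difference of -0.49 (SE 0.39), and the other read 7.08, 8.95 and 8.85 against 8.59, 8.79 and 8.71, a difference of 0.40 (SE 0.48). In each of them a single low array, mimic replicate 1 at 7.57 or scramble replicate 1 at 7.08, stood apart from the other 5.

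Sparc encodes a secreted glycoprotein that binds collagen and is abundant in parietal endoderm. Its brighter feature read 14.01, 14.94 and 14.15 with scramble and 14.32, 15.00 and 14.37 with the mimic. The replicate 2 arrays of both groups stood above the other 4, and the difference of 0.20 (SE 0.30) was smaller than the SD of either group (0.50 and 0.38), and it was -0.018 without mimic replicate 2. The dimmer feature gave 7.37, 8.17 and 7.53 against 7.44, 8.18 and 8.19, a difference of 0.25 (SE 0.35).

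Serpinh1 encodes Hsp47, the collagen-specific chaperone of the endoplasmic reticulum. It read 11.26, 11.20 and 11.38 with scramble and 11.79, 11.42 and 11.66 with the mimic. It was the only member whose groups did not overlap in either direction. Over all genes, 5.58% did not overlap with the mimic higher and 4.12% with the mimic lower. The means were 11.28 ± 0.09 and 11.62 ± 0.19 (SD, n = 3 each), a difference of 0.35 (SE 0.13), or 1.27-fold. The unadjusted limma p was 0.0316, the adjusted p 0.972, and the two-sided exact permutation test gave 0.1, the smallest p that 3 arrays against 3 allow. For the other 9 genes the exact p was 0.2 to 0.6.

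P4ha2 encodes a catalytic subunit of prolyl 4-hydroxylase, which hydroxylates prolines so that collagen helices are stable. It read 11.73, 11.87 and 11.56 with scramble and 11.65, 11.83 and 11.28 with the mimic. Each mimic array was below its scramble counterpart and the ranges overlapped. The difference was -0.13 (SE 0.17), with an interval from -0.51 to 0.25, and it was 0.022 without mimic replicate 3.

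**Figure D3:**
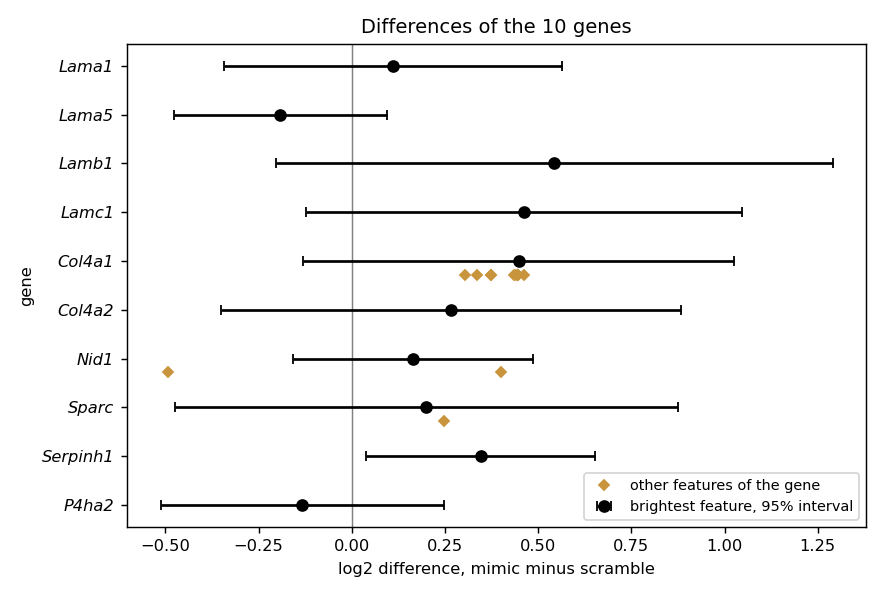
Log2 difference (mimic minus scramble) of each gene by its brightest feature, with the 95% interval from limma in black, and of the gene's other features as diamonds. The interval of Serpinh1 (0.04 to 0.65) lies above 0, and those of the other 9 genes include 0.

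The members shared a pattern across arrays that was larger than the group difference. Relative to each gene's own mean, the set averaged -0.36 on scramble replicate 1, 0.17 on scramble replicate 2 and -0.15 on scramble replicate 3. It averaged -0.03, 0.38 and -0.02 on mimic replicates 1, 2 and 3. Scramble replicate 1 was the lowest array for 7 of the 10 genes, and for 32% of all genes tested. Mimic replicate 2 was the highest for 7 of 10, and for 14.7% of all genes. The 3 exceptions to the first count were Lama5, P4ha2 and Serpinh1, and Lama5, Serpinh1 and P4ha2 were also those of the second. Scramble replicate 1 was the highest array for 24.3% of all genes, the most of any array, and for 0 of the 10.

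**Figure D4:**
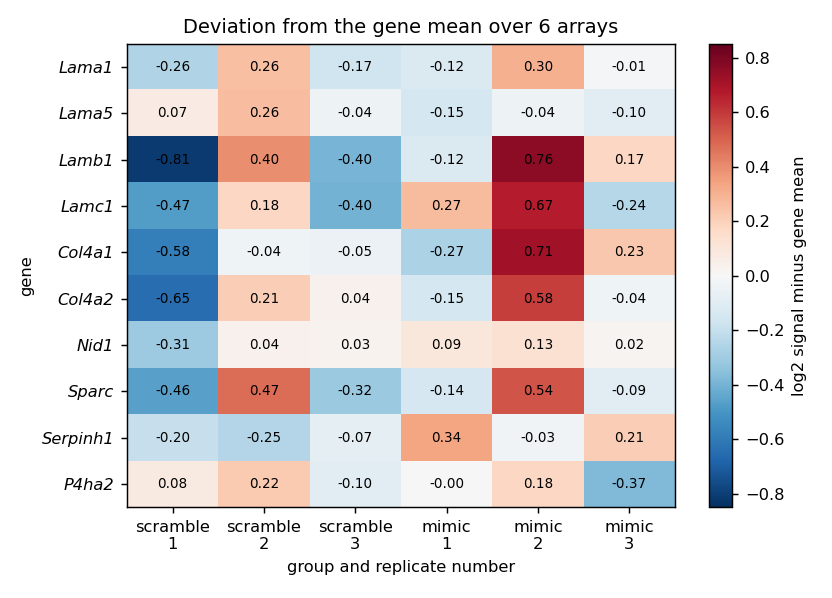
Log2 signal of each member minus its mean over 6 arrays (red above, blue below), by group and replicate number. Lamb1, Lamc1, Col4a1, Col4a2 and Sparc share a low scramble replicate 1 and a high mimic replicate 2, and Lama5, Serpinh1 and P4ha2 do not.

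Because replicate number 2 was high in both groups, the differences within a number were also taken. Deviations of same-numbered arrays correlated at 0.33, 0.35 and 0.20 over all genes, and 2 of the other combinations were positive too, scramble replicate 2 with mimic replicate 3 (0.19) and scramble replicate 3 with mimic replicate 2 (0.12). The pairing is taken from these values alone, because no label ties a number to a day or mating. Mimic exceeded scramble in all 3 pairs for 6 members, Lama1, Lamb1, Lamc1, Col4a1, Sparc and Serpinh1, against 19.1% of all genes. Lamb1 differed by 0.69, 0.37 and 0.57 in pairs 1, 2 and 3, Lamc1 by 0.74, 0.49 and 0.16, and Col4a1 by 0.31, 0.75 and 0.28. Lama1 and Sparc differed by 0.04 to 0.16 and by 0.06 to 0.32. Lama5 and P4ha2 were lower with the mimic in all 3 pairs, with differences from -0.30 to -0.05 and from -0.28 to -0.04. The share of all genes that were lower in all 3 pairs was not taken, so this has no background to be read against.

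With the replicate number as a block in limma, 4 members had an unadjusted p under 0.05 with the mimic higher, against 3.95% of all genes. They were Lamb1, Lamc1, Col4a1 and Serpinh1, whose adjusted p in this limma fit was 0.351, 0.541, 0.547 and 0.587. None of the 10 passed after adjustment over all genes, of which 1 was called, a gene outside the set. Since these genes vary together across arrays, the 4 are not separate observations. No label supports the pairing, which was taken from the same values, so the block removes spread already seen in these genes. The members were also chosen with earlier results of these data known. For these reasons the 4 of 10 cannot be weighed against the 3.95%.

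Other genes of the membrane were taken from lists by role. None of them passed limma at the adjusted threshold. Among linkers and proteoglycans, 12 of 17 were tested and 8 had a higher mean, with a median difference of 0.16, which was 0.04 without mimic replicate 1. Hspg2, which encodes perlecan, read 9.83, 10.11 and 10.06 with scramble and 10.84, 10.43 and 10.56 with the mimic, a difference of 0.61 (SE 0.16). Tinagl1, a matricellular protein gene, read 10.23, 10.33 and 10.61 against 10.86, 11.00 and 10.89, a difference of 0.53 (SE 0.14). Both had groups that did not overlap, as did Fn1 (fibronectin, 0.31), against 5.58% of all genes with the mimic higher. Npnt (nephronectin, -0.35) did not overlap on the lower side, where 4.12% of all genes did not. It read 6.88 to 7.74, near the dim end.

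Of the genes that process and export collagen 11 of 17 were higher, with a median of 0.22, which was 0.03 with no filter on dim features and 0.09 with the mean over a gene's features. Mia3, which encodes the receptor TANGO1 that loads collagen into carriers, had a difference of 0.29 (SE 0.14) without overlap. The lysyl hydroxylase gene Plod2 (0.84, SE 0.43) and the immunophilin gene Fkbp14 (0.25, SE 0.23) did not overlap either. Fkbp14 read 7.03 to 7.64, near the dim end. Over all genes 5.58% did not overlap with the mimic higher. Plod3, of the same family as Plod2, had 0.67 (SE 0.39). Scramble replicate 1 read 7.07 for Plod2 and 7.65 for Plod3, more than 1 unit below each of the other 5 arrays, and without it the median of these 17 genes was -0.05. P4hb, the beta subunit gene of the enzyme that P4ha2 belongs to, had 0.28 (SE 0.29), and P4ha1, which encodes an alternative alpha subunit, had -0.05 (SE 0.27), both named for their link to P4ha2 after their values were seen.

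The chains that replace the members in other tissues lay near the dim end. Of the other laminin chains 5 of 7 were tested, 4 of them higher, with a median of 0.15, which was 0.07 without mimic replicate 1 and -0.01 without both replicate 1 arrays. Lama4, a chain of vessels, had 0.95 (SE 0.71) from mimic replicate 1, which read 9.95 against at most 7.45 elsewhere. Lamc3 had 0.39 (SE 0.31) and Lama3 0.15 (SE 0.22). Of the other basement membrane collagens 4 of 6 were tested, 1 of them higher, with a median of -0.14 that was 0.27 without scramble replicate 1. Col18a1 had 0.46 (SE 0.29), Col15a1 -0.32 (SE 0.36) and Col4a4 -0.23 (SE 0.54). Of 5 crosslinking genes 2 were higher, with a median of -0.05 that was 0.14 without scramble replicate 3. The collagen IV crosslinking peroxidase gene Pxdn had 0.32 (SE 0.40), and the lysyl oxidase genes Lox and Loxl3 had -0.40 (SE 0.26) and -0.21 (SE 0.23).

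On the side of the cells, 6 of 11 receptor genes were higher, with a median of 0.02, which was -0.07 without mimic replicate 3. Itga7, an integrin subunit that binds laminin, read 10.05, 11.03 and 10.45 against 11.57, 12.25 and 11.69, a difference of 1.33 (SE 0.27), and the laminin receptor gene Bcam had 0.48 (SE 0.22). Neither overlapped. The other subunits of laminin-binding integrins were Itga6 at 0.06 (SE 0.13), Itga3 at -0.41 (SE 0.32), Itgb1 at -0.12 (SE 0.26) and Itgb4 at -0.34 (SE 0.22), and the collagen-binding Itga1 and Itga2 had -0.41 (SE 0.31) and -1.19 (SE 0.84). Scramble replicate 1 read 10.79 for Itga2 and the other arrays at most 7.37. Among 8 genes of matrix breakdown and its inhibitors 5 were higher, with a median of 0.15 that was -0.05 without mimic replicate 1. The protease gene Plau had 0.59 (SE 0.20), the inhibitor gene Timp3 -0.57 (SE 0.19) and the protease gene Plat -0.64 (SE 0.38), each without overlap. Plau lay near the dim end, at 7.16, 6.85 and 6.86 against 7.47, 7.81 and 7.36. Scramble replicate 1 read 8.95 for Plat and the other arrays at most 7.83. The shares of all genes without overlap were 5.58% higher and 4.12% lower with the mimic.

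**Figure D5:**
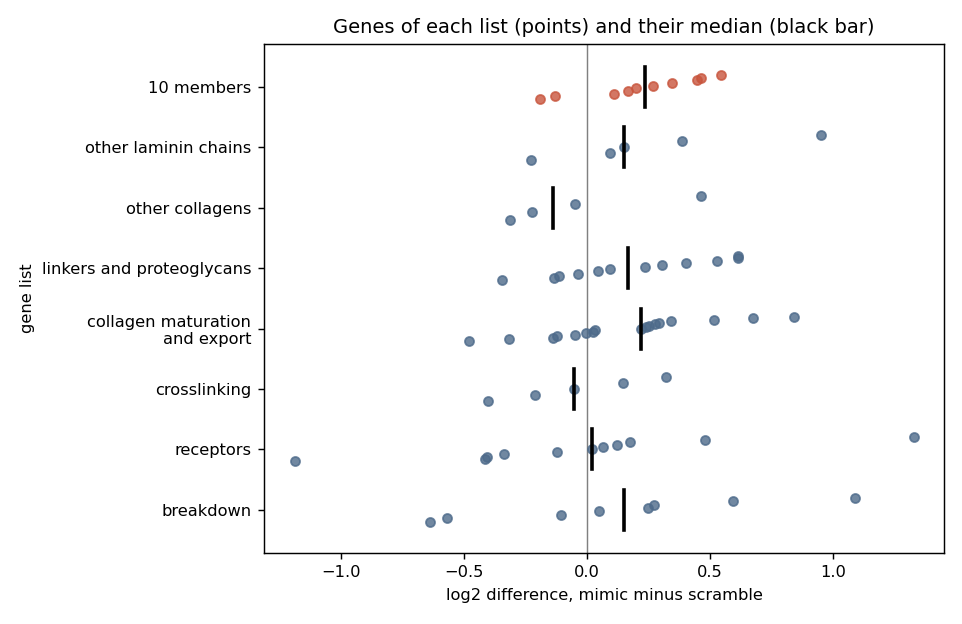
Log2 difference (mimic minus scramble) of every tested gene in the set of 10 and in 7 lists by role, with a black bar at each median. The medians run from -0.14 (other collagens) to 0.23 (the set of 10), and every list holds genes on both sides of 0.

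Markers of the cells that make the membrane were read beside these values. Of 14 primitive endoderm markers that are no members 10 were higher with the mimic, with a median of 0.10 (0.08 without both replicate 1 arrays). Their mean level was 9.31 to 9.53 in scramble and 9.51 to 9.64 in mimic arrays. It was lowest on scramble replicate 1, as were the means of the members and of all genes tested, and highest on mimic replicate 1, whereas the members were highest on mimic replicate 2. The 3 whose groups did not overlap were the endocytic receptor gene Cubn (0.52, SE 0.16), the transcription factor gene Foxa2 (0.39, SE 0.19) and, lower with the mimic, the endocytic adaptor gene Dab2 (-0.47, SE 0.14). Over all genes tested, 5.58% did not overlap with the mimic higher and 4.12% with the mimic lower. The 14 markers ran from -0.47 to 0.67 (Sox7). Scramble replicate 1 read 7.04 for Sox7 and the other arrays at least 8.35. Col18a1 stands in this list and in that of the collagens. Of 7 parietal endoderm markers, among them Plod2 and Plat named above, 4 were higher, with a median of 0.16 that was -0.04 without mimic replicate 2. Of 14 trophectoderm markers 3 were higher, with a median of -0.09. None of these markers passed limma at the adjusted threshold, and their part in the values of the 10 genes was not tested.

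The genes most like the set in their readings on the 6 arrays, outside all lists and among 8619 genes of the brighter part, were Ptpn11, Elovl1 and Dnajc3. Pearson's r with the mean profile of the members was 0.99 for each over 6 arrays, as the top of that many genes. Ptpn11, which encodes the phosphatase Shp2, read 11.51, 11.93 and 11.71 with scramble and 11.83, 12.17 and 11.81 with the mimic. Its lowest array was scramble replicate 1 and its highest mimic replicate 2, as in the set. This likeness follows from picking the gene by its profile and is no separate observation.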

How the data were processed

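Gene expression was measured on 1-colour arrays in 6 samples of whole mouse blastocysts. Per the labels' protocols, 50 ng of total RNA was amplified with T7 polymerase and labelled with Cy3. The deposited values are log2 signal, read from the values, and the software, background correction, normalization and detection limits are not stated by the labels or the table. Features were named from the platform annotation (33026 of 45220 with 1 symbol, 12194 without). Of those with a symbol, 32438 features were matched to RefSeq (GRCm38.p6) by Entrez identifier and took the symbol given there. Named features in the lowest 25% by mean signal were dropped, leaving 24769. The feature with the highest mean stood for a gene (17399 genes). The groups were contrasted by limma 3.58.1 under R 4.3.3 (two-sided, moderated with a trend, Benjamini-Hochberg over all genes or all features). The fit was tested on simulated data. The number of arrays limits precision, and the median SE of a log2 difference was 0.25. Titles call the samples biological replicates, but do not name the matings or days, and the p-values cover no more than the spread among these 6, which may be technical. Replicate numbers were taken to pair the samples where each same-numbered correlation of deviations exceeded 0.1. They did, at 0.33, 0.35 and 0.20. Scramble replicate 2 with mimic replicate 3 (0.19) and scramble replicate 3 with mimic replicate 2 (0.12) exceeded it too. This cut therefore does not single out the same-numbered arrays. The members and lists were chosen with earlier results of these data known. The genes named are the members, in each list by role the 3 with the smallest unadjusted p and any whose groups do not overlap, laminin- and collagen-binding integrins, and the 3 genes outside the lists most like the members. P4hb and P4ha1, the tissue markers Cdx2, Gata6, Sox7, Cdh5 and Kdr, and the primitive endoderm markers without overlap were named after their values were seen. Other markers are described by counts and medians. The alternatives were no filter or a 50% filter, another scaling between arrays, the mean over features, no trend, the replicate block and leaving out arrays. Figures were drawn with matplotlib 3.10.9.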

Additional observations from a re-analysis of the deposited data

How the results depend on the processing

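With each array left out in turn, limma called 0 genes and 0 features throughout. The median difference of the 10 genes then ran from 0.04, where scramble replicate 1 was omitted, to 0.37, where scramble replicate 2 was, and 6 to 9 of them were higher. Omitting mimic replicate 2 turned Lama1 to -0.012 (highest 0.27) and Sparc to -0.018 (highest 0.49), and omitting mimic replicate 3 turned P4ha2 to 0.022 (lowest -0.25). Lamb1 ran from 0.27 to 0.88, Lamc1 from 0.24 to 0.70, Col4a1 from 0.20 to 0.69, Lama5 from -0.26 to -0.11 and Serpinh1 from 0.26 to 0.45. Without both replicate 1 arrays the median was 0.15 and 8 of 10 were higher. With the replicate block 1 gene and 1 feature were called, no member among them. No filter, the 50% filter, both other scalings and the mean over features gave medians of 0.21 to 0.24, with 8 of 10 higher. Without the trend no member had an unadjusted p under 0.05. Dim features have no known detection limit here, so the values of Nid1, Sparc and list genes read near 7 or 8 may understate differences.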

Other observations

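Markers of other lineages and of other tissues were read in the same way. Of 13 inner cell mass and epiblast markers 8 were higher with the mimic, with a median log2 difference of 0.08, and omitting scramble replicate 1 or both replicate 1 arrays left 0.0081 or -0.0035. Of 6 endothelial markers 4 were higher, with a median of 0.05 that was -0.05 without mimic replicate 1. Their mean level was 7.79 to 8.02 in scramble and 7.84 to 8.79 in mimic arrays, highest on mimic replicate 1. Cdh5 had the highest difference, 1.87 (SE 0.80), with mimic replicate 1 at 11.60 and the other arrays at most 8.56. Kdr read 9.34 to 11.48, with a difference of -0.29 (SE 0.52). The lists of cumulus (2 tested), oviduct epithelium (4), blood (2) and stroma (4) had medians of 0.01, -0.05, -0.13 and 0.02, on mean levels between 6.83 and 7.68. No gene of these lists passed limma at the adjusted threshold.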
